A study of Mus musculus with 6 samples.

Results

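The globin-dominated red cell barcodes of this droplet experiment were 637 of 39048 barcodes with at least 200 UMIs (unique molecular identifiers, each standing for 1 counted RNA molecule). They were selected on their globin share: barcodes were taken when Hba-a1, Hba-a2, Hba-x, Hbb-bs, Hbb-bt, Hbb-y and Hbb-bh1 together made up at least 30% of their UMIs. The level of these 7 genes is therefore a description of how the barcodes were chosen, not a finding, and no test was run on it. The lowest barcode in the deposited matrix held 306 UMIs, so the minimum of 200 removed none.

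The study profiled cells of mouse embryos and adult marrow with 10x Genomics Chromium 3′ chemistry to describe the embryonic precursors of osteoclasts, the bone-resorbing cells. The 6 samples form 3 groups of 2. Embryos carrying Csf1r-Mer-iCre-Mer together with Csf1r-EGFP and R26tdTomato received 4-hydroxytamoxifen through the mother at E8.5. Embryos carrying Cx3cr1CreER with R26tdTomato received it at E9.5. From both, macrophage and monocyte lineage cells were taken out of whole bodies at E14.5. The wildtype C57BL/6 group was total bone marrow of 2-month-old mice, with no tamoxifen. In both embryo groups a tamoxifen-dependent Cre recombinase sits under a myeloid gene (Csf1r or Cx3cr1), so tdTomato marks cells in which that gene was active at the time of the pulse, and their progeny. All barcodes lie in 1 matrix, and each ends in a suffix from 1 to 4 that matches no sample label. The suffixes are called libraries 1 to 4 here and given one by one. Which group a library belongs to is not known from the sources used here, so no comparison between the 3 groups was made, and whether adult marrow is among the libraries was not decided.

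Red cells of the mouse embryo come in a pair of kinds. Primitive red cells are made in the yolk sac, enter the blood while still nucleated and carry embryonic haemoglobin, built from the zeta chain of Hba-x with the epsilon-y and beta-h1 chains of Hbb-y and Hbb-bh1; maturing primitive cells switch from beta-h1 to epsilon-y and from zeta to alpha. Definitive red cells are made in the fetal liver and later in bone marrow, lose their nucleus, and carry alpha chains from Hba-a1 and Hba-a2 with adult beta chains from Hbb-bs and Hbb-bt. As a red cell matures, globin comes to dominate its RNA, haem is made from the enzyme ALAS2 onward in mitochondria, and the nucleus and organelles are lost.

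The globin genes lie in a pair of clusters. In GRCm38 the beta-like genes are on chromosome 7, minus strand, with Hbb-bt (ENSMUSG00000073940) at chr7:103812524-103813996, Hbb-bs (ENSMUSG00000052305) at chr7:103826534-103828096, Hbb-bh1 (ENSMUSG00000052217) at chr7:103841637-103843164 and Hbb-y (ENSMUSG00000052187) at chr7:103851749-103853216. The alpha-like genes are on chromosome 11, plus strand, with Hba-x (ENSMUSG00000055609) at chr11:32276400-32278116, Hba-a1 (ENSMUSG00000069919) at chr11:32283511-32284465 and Hba-a2 (ENSMUSG00000069917) at chr11:32296489-32297298. All are protein-coding. The promoters of the leading primitive and definitive gene of each cluster are shown because the primitive and definitive shares of globin were counted from these genes and their neighbours. Each sequence is the 250 bases before the RefSeq gene start (GRCm38.p6), 5′ to 3′ on the gene's own strand, at chr7:103853208-103853457 (Hbb-y, minus), chr7:103827929-103828178 (Hbb-bs, minus), chr11:32276350-32276599 (Hba-x, plus) and chr11:32283422-32283671 (Hba-a1, plus). Capitals mark the motif CACCC, the motif CCAAT and the motif AGATAA, searched on both strands.
Hbb-y promoter: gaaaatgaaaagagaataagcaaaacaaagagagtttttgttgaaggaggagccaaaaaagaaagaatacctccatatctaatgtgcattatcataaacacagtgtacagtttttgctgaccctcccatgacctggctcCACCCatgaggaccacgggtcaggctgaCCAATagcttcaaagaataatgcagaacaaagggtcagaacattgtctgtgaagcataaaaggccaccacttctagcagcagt
Hba-x promoter: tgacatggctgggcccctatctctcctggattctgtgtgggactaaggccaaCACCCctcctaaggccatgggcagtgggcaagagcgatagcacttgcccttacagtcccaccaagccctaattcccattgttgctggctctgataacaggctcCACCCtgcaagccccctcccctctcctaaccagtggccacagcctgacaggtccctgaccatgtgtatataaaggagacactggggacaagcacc
Hbb-bs promoter: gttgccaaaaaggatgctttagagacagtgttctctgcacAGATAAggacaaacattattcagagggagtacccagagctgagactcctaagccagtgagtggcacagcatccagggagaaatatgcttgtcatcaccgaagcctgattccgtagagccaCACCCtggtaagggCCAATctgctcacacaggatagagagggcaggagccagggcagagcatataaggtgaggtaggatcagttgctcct
Hba-a1 promoter: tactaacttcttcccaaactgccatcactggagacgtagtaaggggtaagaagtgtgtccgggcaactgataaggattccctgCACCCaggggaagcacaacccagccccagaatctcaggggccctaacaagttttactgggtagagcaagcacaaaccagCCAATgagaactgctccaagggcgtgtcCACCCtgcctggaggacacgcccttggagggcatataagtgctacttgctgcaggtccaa

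CACCC was found in all 4 windows, 111 bases before the start in Hbb-y, 198 and 95 bases in Hba-x, 90 bases in Hbb-bs, and 167 and 60 bases in Hba-a1. CCAAT was found 83 bases before the start in Hbb-y, 76 in Hbb-bs and 88 in Hba-a1. AGATAA was found in Hbb-bs, 210 bases before the start. These letters are common: CACCC or its complement GGGTG lies in 52.0% of 32851 promoter windows of the same length, CCAAT or ATTGG in 33.8%, and AGATAA or TTATCT in 9.99%. Of the 7 globin genes 6 matched a promoter entry. The windows of Hba-a1 and Hba-a2 were identical over all 247 aligned bases.

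The label of the barcodes held against their markers. Alas2 (X:150547375-150570638, plus strand), which encodes the erythroid form of the first enzyme of haem synthesis and was not used in the choice, climbed with the globin share. It stood at 0.920 CPM (counts per 1000000 non-globin UMIs) in barcodes with under 0.1% globin, at 683 CPM in those with 25 to 30%, at 1055 CPM in those with 30 to 35%, at 10828 CPM in those with 80 to 90%, and at 31761 CPM in the 7 barcodes over 95%. Just inside the limit, 39 barcodes had 30 to 35% globin, with a median of 13380 UMIs. Just outside it, 42 barcodes had 25 to 30%, with a median of 10003 UMIs. The 30% limit therefore falls on a slope, and the barcodes near it are a range rather than a separate kind.

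Library 1 held the most members. They were 273 of 9851 barcodes in library 1 (2.77%, exact Clopper-Pearson 95% interval 2.46 to 3.11), 89 of 7750 in library 2 (1.15%, 0.923 to 1.41), 104 of 8058 in library 3 (1.29%, 1.06 to 1.56) and 171 of 13389 in library 4 (1.28%, 1.09 to 1.48). The intervals of libraries 2, 3 and 4 overlap, and that of library 1 lies above all of them; such intervals cover counting error only and not the spread between embryos or preparations. Members were 1.63% of all barcodes (1.51 to 1.76) and held 70.01% of all globin UMIs in the matrix, or 87.4%, 81.9%, 50.7% and 54.4% of those in libraries 1 to 4. The remaining globin UMIs lay in barcodes under the limit.

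Members held a median of 7495 UMIs (range 424 to 42408), of which a median of 710 were not globin, from a median of 385 genes. By library the medians were 8536, 9113, 5957.5 and 5183 UMIs in libraries 1 to 4, with 785, 743, 598.5 and 690 non-globin UMIs and 402, 389, 336 and 407 genes. The median globin share was 86.8%, or 87.6%, 88.4%, 88.8% and 83.3% by library, and the highest was 96.1%. Globin made up at least 80% of the UMIs in 376 members (165, 50, 71 and 90 by library) and at least 90% in 261; 131 members had 30 to 50% and 130 had 50 to 80%. At the shallow end 100 members had under 1000 UMIs, and 15 members had over 10% mitochondrial transcripts among their non-globin UMIs.

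For comparison, 615 barcodes under the globin limit held at least 5 UMIs, and at least 1 per 1000 non-globin UMIs, of 6 erythroid genes, among them Klf1, Epor, Rhag, Ermap and Trim10. These globin-poor erythroid barcodes (38, 30, 266 and 281 by library) are much deeper, with a median of 36322 UMIs and a median globin share of 3.53%. They were chosen on these genes, whose levels in them are raised by that choice. A further 19300 barcodes carried macrophage genes at 0.5% or more of their non-globin UMIs; their median globin share was 0.088%.

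**Figure D1:**
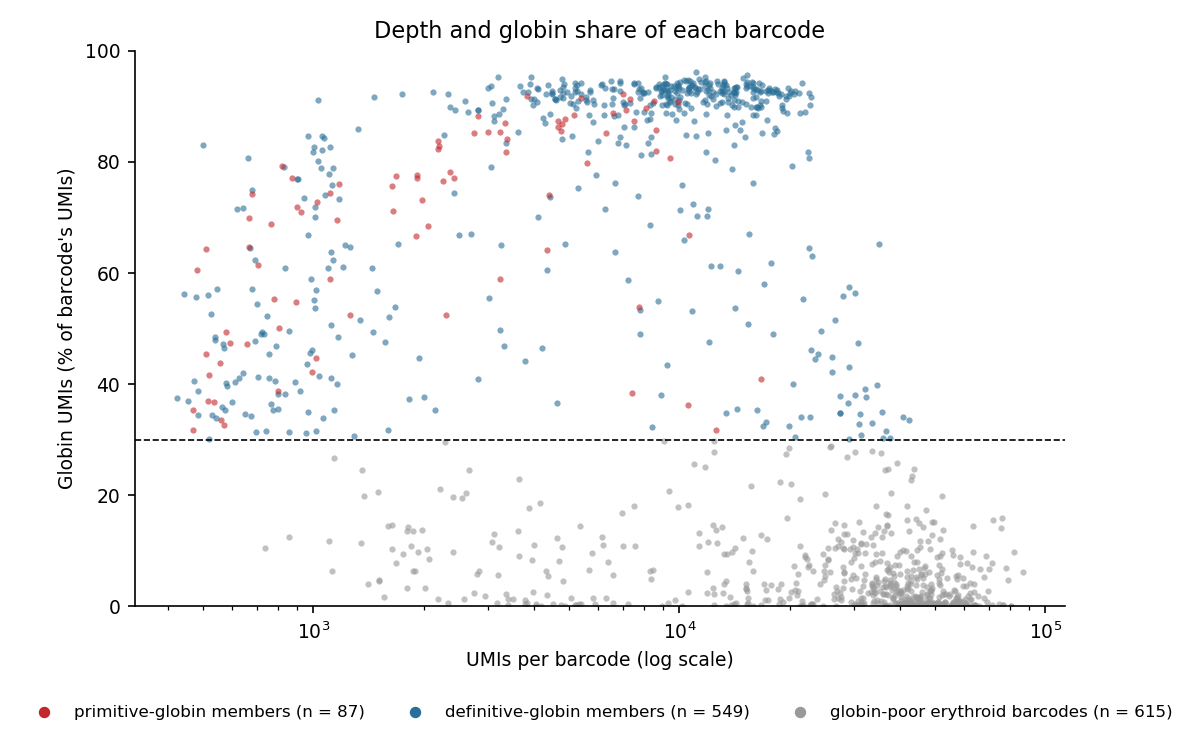
Globin share of UMIs (vertical axis, %) against UMIs per barcode (horizontal axis, log scale) for 87 primitive-globin members, 549 definitive-globin members and 615 globin-poor erythroid barcodes; each point is 1 barcode and the dashed line is the 30% limit. Most members lie between 80% and 96.1% globin, with a tail of shallow barcodes at lower shares and a group of deep barcodes just above the limit that runs on into the globin-poor erythroid barcodes below it.

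Members fell into a pair of classes by the share of primitive globin (Hbb-y, Hbb-bh1 and Hba-x) in their globin UMIs, with almost nothing between. In 87 members the primitive share was 32.2% to 63.3%. In 549 it was under 10%, at most 5.77%, under 0.5% in 529 of them, and 0 in 389. A single member, in library 2, lay between, at 24.4%. The limits of 10% and 30% were set after the gap was seen, and the classes are ranges of a score. The first are called primitive-globin and the second definitive-globin members below. At least 50% primitive globin was reached by 46 members.

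Primitive-globin members were found in all 4 libraries and were least frequent in library 3. They were 50 of 273 members in library 1 (18.3%, 13.9 to 23.4), 11 of 89 in library 2 (12.4%, 6.33 to 21.0), 5 of 104 in library 3 (4.81%, 1.58 to 10.9) and 21 of 171 in library 4 (12.3%, 7.77 to 18.2), together 13.7% (11.1 to 16.6). The interval of library 3 lies below that of library 1 and overlaps those of libraries 2 and 4. Over all members' globin UMIs, the primitive genes made up 2.61%, or 3.19%, 3.37%, 0.562% and 2.13% in libraries 1 to 4. The primitive share by UMIs is far below that by barcodes. Primitive-globin members were shallower, with a median of 2184 UMIs against 8873 in definitive-globin members, and much of their own globin was Hba-a1 and Hba-a2.

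**Figure D2:**
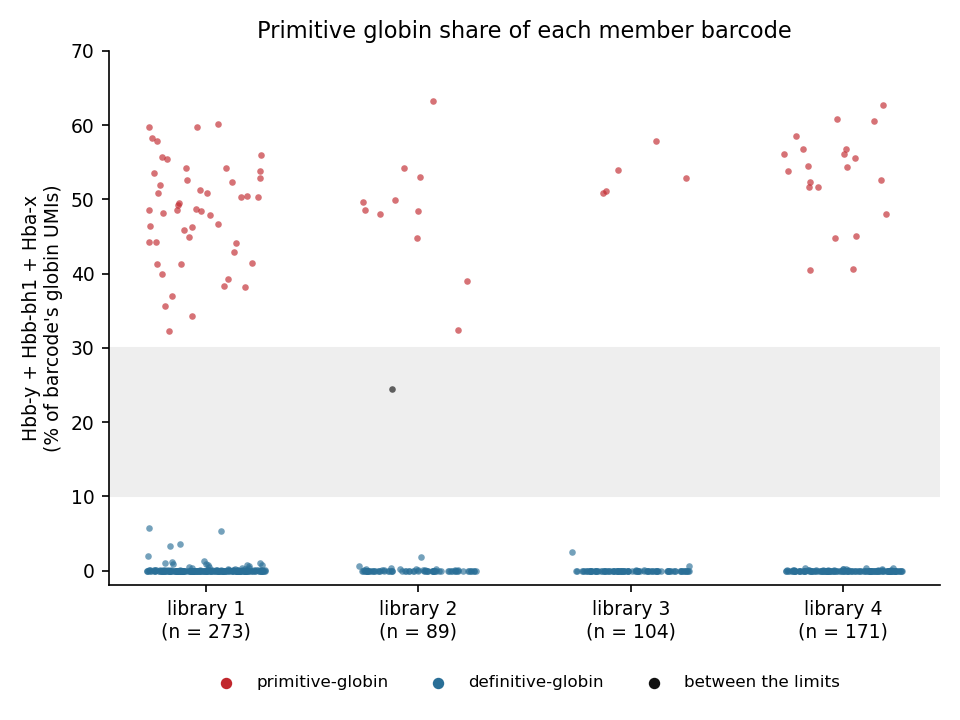
Primitive share of globin UMIs (Hbb-y, Hbb-bh1 and Hba-x, vertical axis, %) of each member barcode, by library; the grey band spans 10% to 30%. Barcodes lie at 32.2% or more or at 5.77% or less, except 1 barcode of library 2 at 24.4%.

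Hbb-y took the largest single share of globin in the primitive-globin members. Of their globin UMIs it took 45.6% (45.1%, 44.8%, 46.1% and 48.1% in libraries 1 to 4), Hba-a1 28.3%, Hba-a2 14.7%, Hba-x 5.06% (5.06%, 4.43%, 6.12% and 5.64%), Hbb-bs 3.07%, Hbb-bt 2.93% and Hbb-bh1 0.341%. In the definitive-globin members Hbb-bs took 35.3%, Hba-a1 28.3%, Hba-a2 18.6% and Hbb-bt 17.8%, with 0.0452% from the 3 primitive genes. Alpha-like chains made up 48.1% of globin UMIs in primitive-globin and 46.9% in definitive-globin members. The classes were chosen by their primitive-globin share, so the difference in beta-like genes follows from that choice.

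Among beta-like UMIs of the primitive-globin members, 88.4% came from Hbb-y and Hbb-bh1, with 87.3% to 89.6% over the libraries. Per barcode, Hbb-y was a median of 88.8% of beta-like UMIs, from 51.7% to 97.2%. Among alpha-like UMIs, Hba-x gave 10.5% (10.4%, 9.19%, 12.9% and 12.3% in libraries 1 to 4), and per barcode from 0.463% to 29.8% with a median of 9.01%. Every one of the 87 had an Hba-x UMI, and 47 had an Hbb-bh1 UMI. Embryonic genes therefore gave most of the beta-like RNA and a minor part of the alpha-like RNA in the same barcodes.

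Hbb-bh1 did not travel with the other primitive genes everywhere. Of the 549 definitive-globin members 55 held Hbb-bh1 UMIs, 109 held Hbb-y and 21 held Hba-x. In 14 of them Hbb-bh1 made up at least 0.5% of globin UMIs, from 0.598% to 5.39%. These 14, of which 11 lay in library 1, 1 in library 2 and 2 in library 3, held 1345 of the 1592 Hbb-bh1 UMIs of the class (84.5%), beside 8 Hbb-y UMIs and 1 Hba-x UMI. The highest counts were 261 and 238 Hbb-bh1 UMIs with no Hbb-y and no Hba-x UMI, in a pair of library 1 barcodes with 8175 and 8330 UMIs. The 14 were singled out after the values were seen.

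**Figure D3:**
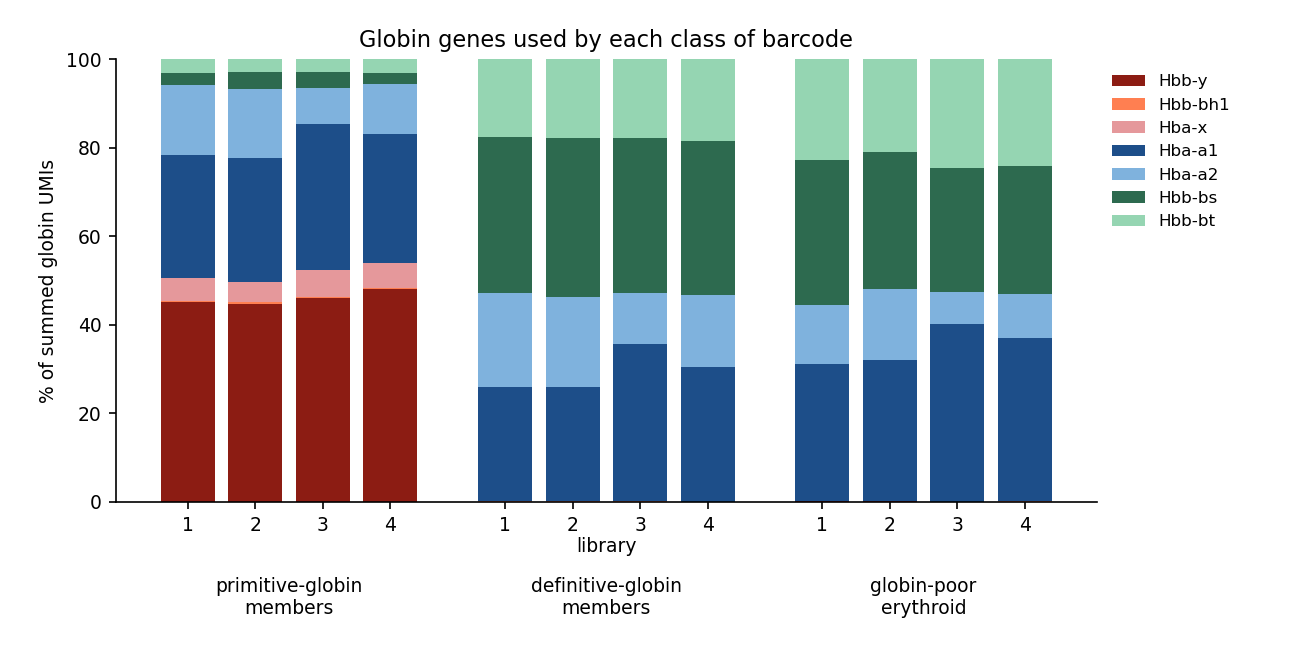
Share of summed globin UMIs (vertical axis, %) taken by each of the 7 globin genes in primitive-globin members, definitive-globin members and globin-poor erythroid barcodes, by library. Hbb-y takes 44.8% to 48.1% in every primitive-globin bar, and the Hba-a1 part is taller in libraries 3 and 4 than in libraries 1 and 2 in every class.

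The split between Hba-a1 and Hba-a2 differed by library and, in library 4, fell into a pair of groups of barcodes. In definitive-globin members with at least 2000 UMIs, Hba-a1 was a median of 55.0% of both genes' UMIs in library 1 (184 barcodes, 50.7% to 67.0%), 56.3% in library 2 (64 barcodes, 51.1% to 67.0%), 75.6% in library 3 (77 barcodes, 71.6% to 82.4%) and 66.5% in library 4 (105 barcodes, 51.2% to 81.5%). Libraries 1 and 2 did not overlap library 3. In library 4, 50 barcodes were under 60%, 52 were at 70% or more, and 3 lay between.

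The primitive-globin members with at least 2000 UMIs had medians of 64.5% in library 1 (23 barcodes), 64.1% in library 2 (8), 80.2% in library 3 (2) and 68.9% in library 4 (12, from 60.2% to 81.2%). The globin-poor erythroid barcodes with at least 100 globin UMIs had medians of 68.9%, 65.4%, 85.6% and 79.6%. Library 3 was highest and library 4 next in each of the 3 sets. The transcripts of Hba-a1 and Hba-a2 are 99.8% identical, with 1 difference over 538 aligned bases, so how reads were shared between them is uncertain and the split may not measure each gene. Hbb-bs and Hbb-bt, at 92.4% identity, are easier to separate. Hbb-bs was 68.3% of both genes' UMIs in definitive-globin members with at least 90% globin (67.8% to 68.8% over libraries) and 63.5% in those with 30 to 50%, against 54.5% in globin-poor erythroid barcodes with at least 100 globin UMIs.

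**Figure D4:**
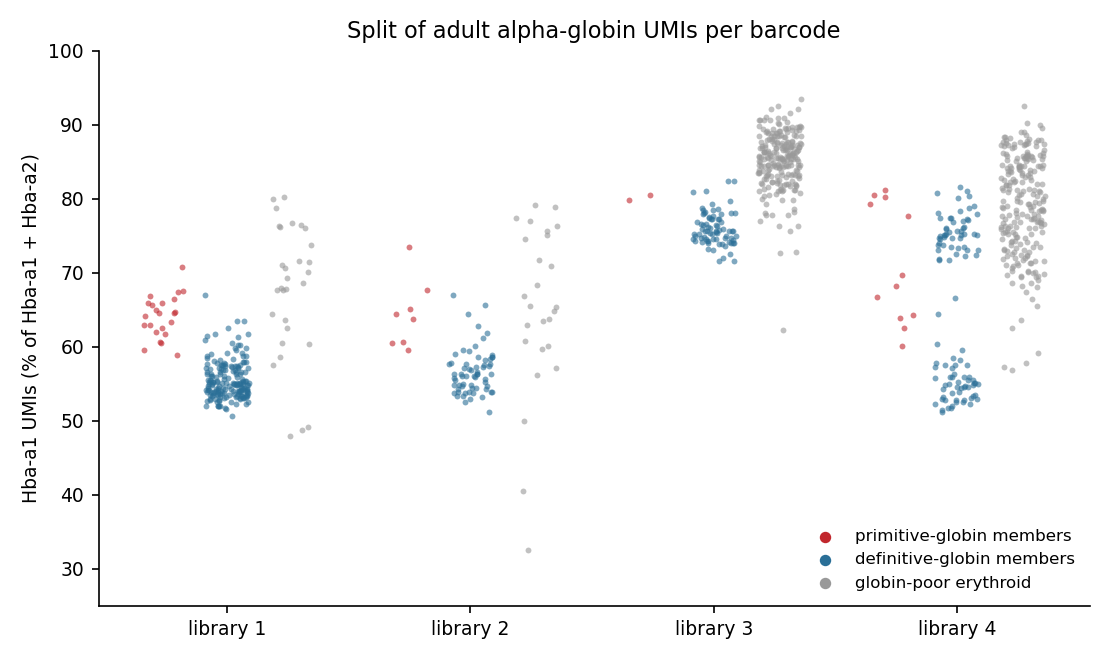
Hba-a1 as a percentage of Hba-a1 plus Hba-a2 UMIs (vertical axis) per barcode and library, for members with at least 2000 UMIs and for globin-poor erythroid barcodes with at least 100 globin UMIs. Definitive-globin members of libraries 1 and 2 lie around 55% and those of library 3 around 76%, while those of library 4 split between both levels.

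The theta-like alpha genes Hbq1a and Hbq1b and the beta-like Hbb-bh2 were not used in the choice. Hbq1a had 70 UMIs in 61 members, of which 58 lay in members with at least 80% globin (176 CPM; 127, 150.2, 352 and 189 CPM in libraries 1 to 4), and none in the globin-poor erythroid barcodes, so it was at least 1145-fold higher, against 3 counts over that whole group. Hbq1b stood at 206 CPM in members with at least 80% globin, against 11.6 CPM in globin-poor erythroid barcodes. Hbb-bh2 had no UMI in either.

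The rest of the transcriptome was described as CPM of summed non-globin UMIs. Over all members these sums are led by few barcodes: 66 members with at least 4000 non-globin UMIs held 64.2% of the 1343600 non-globin UMIs. Against globin-poor erythroid barcodes, 1922 genes reached 100 CPM in either sum, and of these 385 (20%) stood higher in members by 2-fold or more and 365 (19.0%) stood lower by as much. The 376 members with at least 80% globin, whose 330177 non-globin UMIs come from a median of 744 per barcode, are less dominated by few barcodes and are used below; this choice was made after the data were seen. Of 1833 genes compared in them, 375 (20.5%) stood higher by 2-fold or more and 918 (50.1%) lower, with a median log2 difference of -1.01 over all genes. Fold changes are on the scale log2 of CPM plus 10, intervals are exact Poisson 95% intervals, and no p-value is given, since the barcodes have no replicate samples behind them. As the globin share chose the members, these counts are a description. A gene over the minimum in members alone could not be counted as lower. Among those named below, Alas2, Bpgm, Epb41, Slc2a1, Tmcc2, Xpo7, Bcl2l1, Foxo3, Nfe2 and Fos were such genes. A gene over it in globin-poor erythroid barcodes alone could not be counted as higher, as for Steap3, Slc25a38, Aqp1, Gata1, Epor and Bcl11a.

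Genes of iron storage, oxidant defence and haem synthesis were among the abundant non-globin genes of the members with at least 80% globin. Ribosomal protein genes made up 15.8% of their non-globin UMIs. The most abundant gene was Ftl1, the ferritin light chain, with a mean over libraries of 53746 CPM, followed by Gpx1, a glutathione peroxidase, with 30658, and Fth1, the ferritin heavy chain, with 25595. The ribosomal protein gene Rpl41 had 16824. Prdx2, the main peroxiredoxin of red cells, had 16536, Alas2 16531, and the ubiquitin gene Ubb 13864. Car2, a carbonic anhydrase, had 10364. By library, Alas2 stood at 17082, 19705, 15490 and 13848 CPM in libraries 1 to 4, high in every library.

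The haem synthesis list divided. Of its 13 genes 11 passed the minimum, 4 stood higher by 2-fold or more and 4 lower. Their median log2 was 0.60, beside -1.01 over all genes compared. Alas2 had 16403 CPM (15969 to 16846) in members with at least 80% globin, against 76.0 CPM in globin-poor erythroid barcodes, a log2 difference of 7.58 (7.05, 7.24, 7.61 and 7.33 in libraries 1 to 4). Fech, the ferrochelatase that puts iron into haem, had 5630 against 334 CPM, and Slc25a37, mitoferrin 1 of the mitochondrial membrane, 2293 against 137 CPM. Urod, a middle enzyme of the pathway, had 1908 against 497 CPM. Lower were Tmem14c, a porphyrin carrier, with 157 against 1786 CPM, Cpox with 351 against 927, Alad with 491 against 1166, and Slc25a38, the mitochondrial glycine carrier, with 30.3 against 129. The first and last steps, iron import and the middle enzyme Urod were thus higher. The second enzyme, Alad, was lower, as were 50.1% of all genes compared.

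In the iron list, 8 of 12 genes passed, 6 higher and 1 lower, with a median log2 of 1.90. Over all genes compared, 20.5% were higher and 50.1% lower. Ftl1 had 51618 against 6082 CPM and Fth1 24799 against 5485. The transferrin receptor Tfrc had 81.8 against 133 CPM, a log2 difference of -0.64, which is under 2-fold. Steap3, the ferrireductase of erythroid endosomes, had no UMI, against 130.2 CPM in globin-poor erythroid barcodes, and was at least 14.3-fold lower. In the oxidant defence list, 6 of 9 genes were higher and none lower (median 1.74); Gpx1 had 29515 against 1654 CPM, Prdx2 15186 against 2687 and Gclm, a subunit of the enzyme that starts glutathione synthesis, 1069 against 228.

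Genes of gas exchange and of the membrane followed. Of 6 gas and acid-base genes that passed, 4 were higher and 1 lower (median 1.36). Bpgm, which makes the 2,3-bisphosphoglycerate that lowers oxygen affinity, had 6239 CPM (5973 to 6514) against 45.3, and Slc4a1, the band 3 anion exchanger, 2571 against 146. The water channel Aqp1 had no UMI, against 107 CPM, and was at least 11.8-fold lower. Of 15 membrane and skeleton genes that passed, 11 were higher and 1 lower (median 2.17). Both lists stand beside 20.5% higher and 50.1% lower over all genes compared. Bpgm, Epb41, Slc2a1 and Tmcc2 reached the minimum of 100 CPM only in the members. Epb41, protein 4.1, had 1693 against 50.3 CPM, and the glucose transporter Slc2a1 890.4 against 45.8. Tmcc2 had 3244 against 30.9 CPM, from 97 barcodes, with log2 differences of 3.45, 3.72, 7.19 and 7.13 in libraries 1 to 4. Icam4, a red cell adhesion molecule, was the lower one, with 115 against 273 CPM.

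Genes of late maturation, of ubiquitin and of mitochondrial clearance were mostly higher. Of the list's 20 genes 17 passed, 14 stood higher by 2-fold or more and none lower, with a median log2 of 4.16. Over all genes compared the median was -1.01, with 20.5% higher. Mkrn1, a ubiquitin ligase, had 8829 against 159.6 CPM, Bnip3l, the mitophagy receptor needed to clear mitochondria from reticulocytes, 4428 against 193, and Ube2l6, a conjugating enzyme, 3974 against 106. Xpo7, a nuclear export receptor, had 706 against 9.46 CPM and Gabarapl2, of the autophagosome, 2732 against 112. Among the genes furthest apart overall was also Bcl2l1, which encodes the survival protein Bcl-xL, with 1278 against 12.4 CPM.

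Erythroid transcription factors lay on both sides, with a median log2 of -0.29, beside -1.01 over all genes compared. Of 9 that passed, 2 were higher, Foxo3 with 269.6 against 33.8 CPM and Nfe2 with 148 against 41.8, and 3 were lower, Klf1 with 176 against 619, Gata1 with 30.3 against 167, and Bcl11a, a repressor of embryonic beta-like globin, with 1 UMI. The ratio for Bcl11a was 0.0216, with an exact 95% interval of 0.000548 to 0.121. The erythropoietin receptor Epor had 30.3 against 169.8 CPM. Klf1 and Epor also helped choose the globin-poor erythroid barcodes.

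Cell cycle genes were mostly lower, beside 50.1% lower and a median log2 of -1.01 over all genes compared. Of 12 S phase genes that passed, 10 were lower and none higher (median -2.28). Among them were Mcm7 with 54.5 against 342 CPM and Dut with 90.9 against 709. Of 14 G2 or M phase genes, 10 were lower, such as Ccnb1 with 81.8 against 306 CPM. Their median of -1.44 was nearer to that of all genes. Mcm7, Dut and Ccnb1 reached the minimum of 100 CPM only in the globin-poor erythroid sum. The 2 higher ones were Ube2c, a ubiquitin-conjugating enzyme of mitotic exit, with 2753 CPM (2577 to 2938) against 464, and Nusap1, a spindle protein, with 854 against 133. The Ube2c level in members with at least 80% globin was 2779, 2854, 2530 and 2775 CPM in libraries 1 to 4, all above the 456 to 473 CPM of globin-poor erythroid barcodes.

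Primitive-globin members, set against definitive-globin members with both at 80% globin or more, had another remainder. The classes were not matched within that range. Of 115 members at 80 to 90% globin, 91 were definitive-globin, and of 261 at 90% or more, 255 were. Over all members, Alas2 stood at 10828 CPM at 80 to 90% and at 19753 CPM at 90 to 95%. What part the globin share has in the differences below was not tested. At 80% globin or more there were 30 primitive-globin members (19, 4, 2 and 5 by library) with 20563 non-globin UMIs and 346 definitive-globin members with 309614. Because the primitive sum is small, a minimum of 1000 CPM in either sum was used, and 3 UMIs over the whole primitive sum are worth 146 CPM. Of 221 genes, 33 (14.9%) stood higher in primitive-globin members by 2-fold or more and 75 (33.9%) lower, with a median log2 of -0.00286. The globin genes set the classes and were left out of these counts. A gene under 1000 CPM in primitive-globin members passed only through the other sum and could not be counted as higher. Slc25a37, Urod, Slc4a1, Tmcc2, Mkrn1, Ube2c and Glrx5 were such genes. In turn Hmox1, Slc38a2, Pdzk1ip1 and Hsd3b6 passed only through the primitive-globin sum and could not be counted as lower.

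Malat1, a long RNA that stays in the nucleus, stood out in the primitive-globin members. It took 11.3% of their non-globin UMIs, against 0.689% in definitive-globin members with at least 80% globin. By library the values were 11.2%, 19.1%, 3.20% and 5.88% in primitive-globin members, against 0.899%, 0.241%, 0.382% and 0.664%, so every library had it higher. It was found in 29 of the 30. After each barcode was thinned to 200 non-globin UMIs, 28 of 30 primitive-globin members still had a Malat1 UMI (93.3%, exact 95% interval 77.9 to 99.2), against 25.9% of 328 definitive-globin members (21.3 to 31.0), with 18 shallower ones left out; unthinned, 213 of 346 had one. In definitive-globin members with at least 90% globin Malat1 was 0.133% of non-globin UMIs. Macrophage-marked barcodes had 1.13% and globin-poor erythroid barcodes 0.272%. The part of free RNA in these values was not tested.

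Over all 87 primitive-globin members, 85 had a Malat1 UMI, with a median of 3.18% of non-globin UMIs, against 392 of 549 definitive-globin members with a median of 0.211%. Mitochondrial transcripts made up 3.59% of the summed non-globin UMIs of the 87 primitive-globin members, with 1.25%, 4.47%, 1.34% and 9.34% in libraries 1 to 4, against 2.86% over all members; the median barcode of the 87 had 1.13%, and the highest 35.6%. At 80% globin or more they were 0.744% of non-globin UMIs in primitive-globin members (exact 95% interval 0.631 to 0.872), with 0.831%, 0.261%, 1.0% and 0.749% in libraries 1 to 4, against 3.16% in definitive-globin members (3.10 to 3.23), with 3.07%, 3.05%, 3.35% and 3.30%. At 80% globin or more the libraries did not overlap. The median depth of these barcodes was 607.5 non-globin UMIs in primitive-globin and 771 in definitive-globin members.

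Of 4 iron and haem handling genes that passed at 80% globin or more, 2 were higher in primitive-globin members, Fth1 and Hmox1, and 1 was lower, Glrx5, a mitochondrial glutaredoxin, with 632 against 2826 CPM (median log2 0.94). Fth1 had 58989 CPM (50315, 99314, 48000 and 61821 in libraries 1 to 4), against 22528 CPM (21831, 26817, 21372 and 22514) in definitive-globin members, without overlap. Ftl1 had 70855 against 50340 CPM, which is under 2-fold. Hmox1, the haem oxygenase that breaks haem down, had 2675 CPM from 55 UMIs in 12 barcodes, against 155 CPM. Slc38a2, an amino acid transporter, had 2140 CPM from 44 UMIs in 17 barcodes, against 22.6 CPM; its log2 difference was 6.23, 8.49 and 6.55 in libraries 1, 2 and 4 and -2.95 in library 3, which has 2 such barcodes. Pdzk1ip1, a membrane-associated protein, had 2432 CPM in 21 barcodes, against 51.7. Hsd3b6, a steroid dehydrogenase, had 2432 CPM in 20 barcodes, against 161. No single barcode gave more than 23.6% of the UMIs of these 4 genes.

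Every haem, gas exchange and membrane gene that passed was lower in the primitive-globin members, beside 33.9% of all genes compared. In the haem list 5 of 5 were at least 2-fold lower, with a median log2 of -2.40, also with the genes at 0 set to their bound. Alas2 had 4134 CPM (4410, 3594, 8000 and 1873 in libraries 1 to 4), against 17218 CPM (18237, 21042, 15658 and 14265), and Fech 1119 against 5930 CPM. Slc25a37 and Urod had no UMI, against 2445 and 2035 CPM, and were at least 16.8-fold and 13.9-fold lower. Slc25a37 had no UMI in any of the 87 primitive-globin members either, whereas 3 counts in their 80563 non-globin UMIs are worth 37.2 CPM.

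All 4 gas exchange genes were lower (median -2.06), among them Car2 with 2577 against 10658 CPM, Bpgm with 2043 against 6518 and Slc4a1 with 632 against 2700. All 5 membrane genes were lower (median -1.75). Cd24a, a surface glycoprotein, had 1848 against 6253 CPM and Tmcc2 438 against 3430.

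In the oxidant defence list 3 of 6 genes were lower and none higher (median -1.05); Gpx1 had 2675 CPM (2819, 3594, 1000 and 1499 by library), against 31297 CPM (29822, 33732, 33768 and 31611). Of 11 late maturation genes that passed, 8 were lower and 1 higher (median -1.71). Mkrn1 had 632 against 9373 CPM and Bnip3l 1410 against 4628. Ube2c had 97.3 CPM from 2 UMIs, against 2929 CPM, a ratio of 0.0332 (0.00401 to 0.120). Alas2, Bpgm, Tmcc2 and Mkrn1 were among the genes furthest up in members with at least 80% globin. Each was at least 2-fold lower in the primitive-globin class. Of those 376 members 346 were definitive-globin, so this direction is partly built into the choice of genes. Ubb, with 11720 against 14554 CPM, was lower by less than 2-fold.

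**Figure D5:**
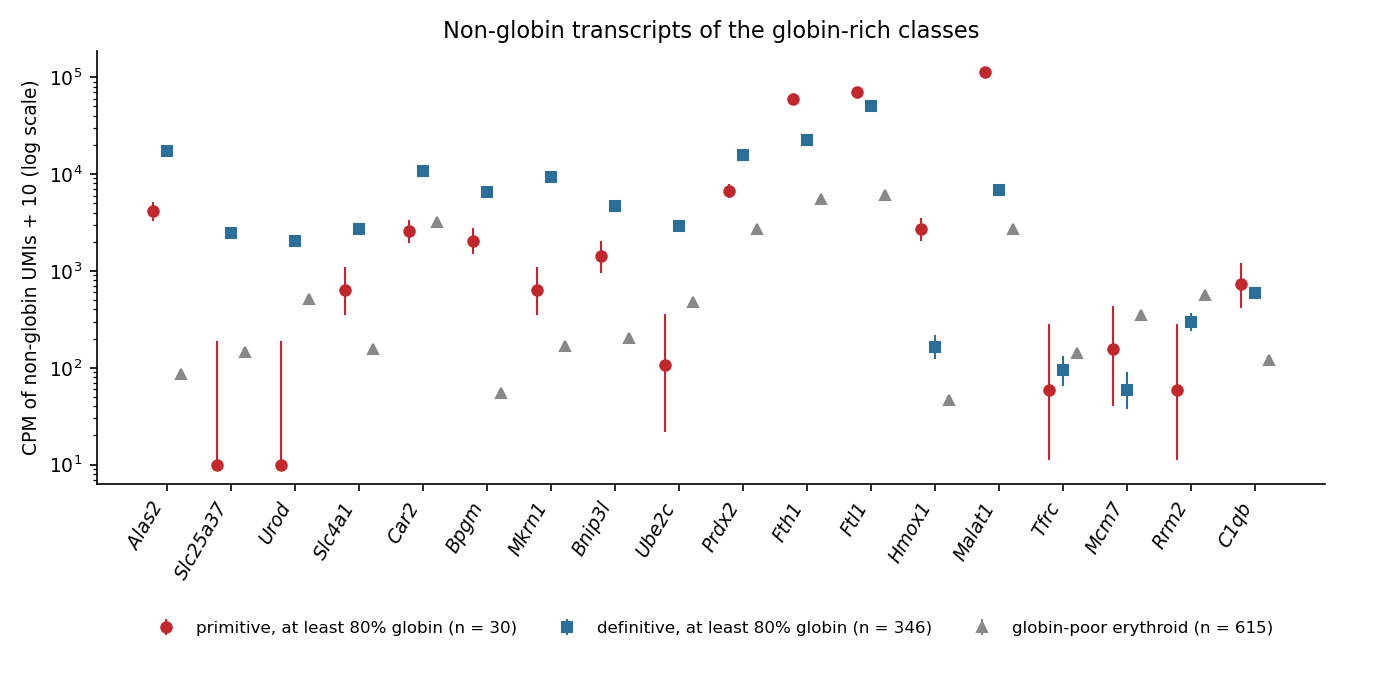
Level of named genes (vertical axis, CPM of non-globin UMIs plus 10, log scale) in primitive-globin members with at least 80% globin (30 barcodes), definitive-globin members with at least 80% globin (346) and globin-poor erythroid barcodes (615); bars are exact Poisson 95% intervals of the summed counts. Malat1, Fth1 and Hmox1 stand highest in the primitive-globin members, and Alas2, Slc25a37 and Ube2c highest in the definitive-globin members.

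The wider comparison of members with at least 50% against those with under 10% primitive globin, without a limit on the globin share, is led by few barcodes. Of 1695 genes, 242 (14.3%) stood higher by 2-fold or more and 334 (19.7%) lower. Of its haem synthesis genes 11 of 12, of its membrane genes 17 of 18 and of its gas exchange genes 5 of 5 were lower, and none was higher. Of the genes furthest up, Cpa3 and Prss34, proteases of mast cells and basophils, had 71.6% and 82.4% of their UMIs in 1 barcode, and the chemokines Ccl12 and Ccl7 92.9% and 86.5%. Macrophage genes that passed were 4 of 14 at least 2-fold higher there.

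Transcripts of other cell types lay in most members. The 16 macrophage genes made up 1.24% of members' non-globin UMIs (0.729% to 1.74% over libraries) and 0.593% in members with at least 80% globin (0.403% to 0.724%), against 0.103% in globin-poor erythroid barcodes and 3.74% in macrophage-marked barcodes. At least 1 macrophage UMI was found in 532 of the 637 members, and none in 105. All 16 genes were detected in members; Apoe led, with a mean of 6184 CPM over libraries. In primitive-globin members the list made up 2.06% (0.445% to 2.73% over libraries), but at 80% globin or more it was 0.613% in primitive-globin and 0.592% in definitive-globin members, and in the primitive-globin ones Mrc1, Lyve1, Ms4a7, Cx3cr1, Vcam1, Timd4 and Cd5l were at 0. The summed macrophage level of both classes at 80% globin or more thus lay close together.

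Among the 66 deep members, macrophage genes made up at least 0.5% of non-globin UMIs in 24, from 0.589% to 3.12%, with Alas2 at 1492 CPM; 13 of these lay in library 1. The other 42 deep members had 0.0562% macrophage genes and 1754 CPM of Alas2, with the 6 erythroid genes at 4706 CPM, against 1263 CPM in the 24. No doublet caller was run, and whether the 24 hold a red cell and a macrophage in 1 droplet was not tested.

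The other lists were low. Monocyte and neutrophil genes made up 0.285% of non-globin UMIs in members with at least 80% globin (0.125% to 0.493% over libraries), mast cell and basophil genes 0.0400%, hepatocyte genes 0.0388%, neural genes 0.0118%, mesenchymal genes 0.00848%, endothelial genes 0.00545%, B cell genes 0.00242% and platelet genes 0.00212%. Of the platelet genes Gp1bb, Gp5, Tubb1 and Treml1 were at 0. Immediate early and stress genes made up 0.169%, against 0.0544% in globin-poor erythroid barcodes, and 3 of the 6 that passed, Fos, Junb and Zfp36, were at least 2-fold higher. Fos had 515 against 89.7 CPM. What part free RNA has in these values was not tested.

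The tdTomato reporter was low in members. It had 153 UMIs, or 114 CPM (96.5 to 133), in all members, with 109, 175, 119 and 77.0 CPM in libraries 1 to 4, and 72.7 CPM in those with at least 80% globin. Globin-poor erythroid barcodes had 123 CPM (2.59, 38.1, 131 and 129.8 by library) and macrophage-marked barcodes 217 CPM (156, 225, 244 and 260.2). In libraries 1 and 2 members with at least 80% globin stood at 78.6 CPM (41.8 to 134) and 150.2 CPM (55.1 to 327), above globin-poor erythroid barcodes, though in library 2 the interval meets theirs (24.1 to 57.1). In libraries 3 and 4 they rested on 3 and 2 UMIs, at 66.0 CPM (13.6 to 193) and 25.2 CPM (3.05 to 91.1), and only library 4 lies below the globin-poor erythroid barcodes beyond counting error. After thinning to 200 non-globin UMIs, 2.46% of 610 members had a tdTomato UMI (1.38 to 4.02; 9.73% unthinned), against 1.95% of globin-poor erythroid barcodes (1.01 to 3.38; 71.9% unthinned) and 4.85% of macrophage-marked barcodes (4.55 to 5.16; 50.6% unthinned), so members and globin-poor erythroid barcodes overlapped at equal depth. The primitive-globin members had 261 CPM on 21 UMIs, 12 of them in library 2, against 105 CPM in definitive-globin members; at equal depth 2 of 83 and 13 of 526 had a UMI.

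Barcode sequences shared between libraries were counted, since a shared sequence can carry molecules from 1 library into another. Of all sequences 761 occurred in more than 1 library, in 1540 barcodes (3.94% of all). Among members 21 (3.30%) had such a sequence, and none of these sequences was a member in both libraries. The partners had a median of 0.249% globin, and at most 16.6%.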

How the data were processed

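The authors deposited 1 matrix of UMI counts for 31054 features and 39048 barcodes (561415289 UMIs), not normalized. Per the file headers the writing program was Cell Ranger 3.0.1, while version 2.1.1 and the build mm10 are given by the submitters' processing notes; the cells were loaded with the Chromium Single Cell 3′ kit v1 per the labels' protocols. The barcode suffixes 1 to 4 match no sample label, so the suffixes were kept apart as libraries and no test between groups was made.

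Barcodes with at least 200 UMIs and at least 30% of them from 7 globin genes were members. Counts were summed per set, globin was taken out, and the sums were scaled to CPM. Genes with at least 100 CPM in either sum (1000 CPM where the smaller sum had few UMIs) were compared as log2 of CPM plus 10, and 2-fold was the limit of a count; this describes these libraries and is not a test. The comparison scripts were checked on simulated data. Intervals are 95% exact Poisson or Clopper-Pearson intervals. They and the floor of 3 counts cover counting error only. Shares of barcodes with a UMI were also taken after thinning to 200 non-globin UMIs. Macrophage-marked barcodes had at least 1000 UMIs, 0.5% or more of non-globin UMIs from 14 macrophage genes, and were neither members nor globin-poor erythroid barcodes. No doublet caller was run. Free RNA was taken out only for the globin genes and only as an alternative.

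The members and the gene lists were chosen with earlier results of these data known, and the restriction to 80% globin and the limits of the primitive class were added after the data were examined. The text names the globin genes, abundant members of the lists, the 20 most abundant genes, and the 12 highest and 12 lowest genes of each comparison with 1 direction in every library that has 30 barcodes of both sets. The last of these passes over predicted, ribosomal and mitochondrial genes. List genes outside that rule were named after their values were seen. Other limits, minimums and pseudocounts, and leaving out each library, were tried as alternatives. Python 3.11.15, numpy 2.4.6, scipy 1.17.1, pandas 2.3.3 and matplotlib 3.10.9 were used. Promoter windows are RefSeq's on GRCm38.p6. Some genes of the lists are counted but not reported here by name.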

Additional observations from a re-analysis of the deposited data

Results flagged for a closer look

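The share of members among barcodes in library 1 was 2.77%, far from that of the other 3 libraries, of which the nearest was 1.29%. Its gap to the nearest library was 0.912 of the whole range, above Dixon's 95% critical value for 4 values. Of 15 measures examined over the 4 libraries this was the 1 that passed, and chance alone passes a small part of such measures. The libraries may belong to different groups, which the sources used here do not settle, so the value is given without a comparison.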

How the results depend on the processing

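No paired analysis was possible because the barcode suffixes carry no sample or replicate number. The main limits are that 1 pooled matrix gives no replicate samples, and that primitive-globin members with at least 80% globin hold 20563 non-globin UMIs in all. A further limit is that 66 deep members hold 64.2% of all members' non-globin UMIs. The cause of the shifts below was not tested.

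Members were 1.63% of barcodes; they were 1.88% with a globin limit of 20%, 1.30% with 50%, 1.48% with at least 1000 UMIs, and 1.0% of UMIs. Leaving out each library in turn gave 364 to 548 members and 1.25% to 1.82%, with the lowest without library 1. The primitive share of globin UMIs, 2.61%, became 2.58% with the limit at 20%, 2.51% with at least 1000 UMIs, 2.46% without barcodes over 10% mitochondrial UMIs, 2.69% without shared barcode sequences, 2.29% without members rich in macrophage genes, 2.17% at 80% globin or more, 4.44% over beta-like genes, 0.544% over alpha-like genes, 0 as the median over barcodes, and 2.08% to 2.94% with a library left out. The primitive-globin class, 13.7% of members, became 11.0% with at least 1000 UMIs, 7.98% at 80% globin or more, and 10.2% to 15.4% with a library left out. Taking out free globin RNA by the level in macrophage-marked barcodes of each library left 637 members and 2.61%. That level was 1.35 to 2.55 globin UMIs per 1000 non-globin UMIs, too low to change the count much. Other genes were not corrected.

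Against globin-poor erythroid barcodes, the 365 lower genes became 236 with the limit at 20%, 730 with 50%, 918 at 80%, 200 with a pseudocount of 50 CPM, 789 without the deep members and 614 as a mean over barcodes. With no filter there were 1100 higher and 746 lower genes, and with at least 500 CPM 101 higher and 62 lower. Of 1254 values for single genes under the alternatives, 849 stayed within the counting interval of the main value and 405 moved outside it. No gene with a main difference of at least 2-fold changed sign. Sign changes of genes with smaller main differences were not counted. For members with at least 50% against under 10% primitive globin, the 242 higher genes became 399 with the globin limit at 50% and 674 as a mean over libraries; without members rich in macrophage genes there were 442 higher and 561 lower. With a library left out there were 299 to 829 higher and 339 to 547 lower. At 80% globin or more with at least 1000 CPM there were 33 higher and 75 lower. That setting compared primitive-globin with definitive-globin members, so the class limit changed along with the globin limit. Limits of 80% and 2% primitive globin gave no value, since the highest share was 63.3%.

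In the comparison at 50% and 10% primitive globin, 7 genes with a main difference of at least 2-fold changed sign on the log2 scale. The values below at 80% globin or more are again for primitive-globin against definitive-globin members. Cyr61 went to -1.93 with the globin limit at 50%, -1.65 without library 1, -1.39 without members rich in macrophage genes and -0.98 at 80% globin or more, and was 4.28 without library 4. Cpa3 went to -2.06 without library 4 and -3.66 at 80%, Prss34 to -0.52 and -0.72, Ptprcap to -0.82 without library 4, and Ccl12 to -0.78 at 80%; without library 1, Cpa3 was 6.30, Prss34 6.11 and Ptprcap 5.95. Uros went to 0.039 as a mean over libraries and 0.71 at 80%, and Slc25a38 to 0.59 at 80%.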

Other observations

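The pair of Hba-a1 levels among definitive-globin members of library 4 was set beside other genes, chosen after their values were seen. In members with at least 80% globin and 2000 UMIs, the predicted gene Gm8797 had 26 UMIs in 32183 non-globin UMIs (808 CPM, in 15 barcodes) where Hba-a1 was at least 65% of Hba-a1 plus Hba-a2 in library 4, against 4 UMIs in 43755 (91.4 CPM) where it was under 65%. In library 3, where every such barcode was at 70% or more, it had 687 CPM in 20 barcodes. In libraries 1 and 2 it had 19.8 CPM and no UMI. In macrophage-marked barcodes Gm8797 stood at 10.2, 10.6, 128 and 83.9 CPM in libraries 1 to 4, so the order of the libraries was not limited to red cells. Alas2 stood at 13610 and 14787 CPM in these same library 4 barcodes at 65% or more and under it. Without the limit of 80% globin, the groups held 53 and 52 definitive-globin barcodes. There Alas2 stood at 3087 CPM at 65% or more and 8912 CPM under it. Macrophage genes made up 0.231% and 0.508% of their non-globin UMIs. The genes Gm16867 and Rsad2 did not follow Gm8797. Hbq1a had 119, 136 and 366 CPM in the members of libraries 1, 2 and 3. In library 4, Hbq1a had 218 CPM (87.4 to 448) at 65% or more and 183 CPM (78.9 to 360) under it. The predicted gene Gm16867 had 403, 600 and 68.7 CPM in the members of libraries 1, 2 and 3. In library 4 it had 466 CPM at 65% or more and no UMI under it. Rsad2 had 526 CPM in library 4 under 65%, against 6.61 CPM in library 1 and no UMI in library 2.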
